A study of Mus musculus with 48 samples.

Results

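Cytochrome P450 enzymes of families 1 to 3 were followed in mouse liver RNA. Their genes were taken as the rows of the count table whose symbol begins with Cyp1, Cyp2 or Cyp3 followed by a subfamily letter and a number, with 10 or more counts in at least 3 libraries. The rule found 48 genes among 22354 rows: 3 of family 1, 37 of family 2 and 8 of family 3, in 14 subfamilies. A further 9 rows matched the symbol pattern and did not reach the minimum, Cyp2c65 with at most 17 counts in a library and Cyp3a57 with at most 10 among them. All 48 genes passed the filter on low counts and were tested, so no member was lost. The label was checked against symbols and annotation: 1 member, Cyp2d37-ps, carries a pseudogene symbol.

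Microsomal P450s are haem enzymes of the endoplasmic reticulum that insert oxygen into lipophilic substrates, with electrons from NADPH-cytochrome P450 reductase. Families 1 to 3 oxidise most drugs and many pollutants in liver, and also steroids, fatty acids and bile acids. Several are induced through the receptors AhR (family 1), CAR (Cyp2b and Cyp2c) and PXR (Cyp3a). In mice a number of them differ between the sexes under the control of the pattern of growth hormone secretion, and many are confined to hepatocytes around the central vein.

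The libraries came from 23 KO and 25 WT female C57BL/6J mice. KO denotes a knockout of Bmal1 (symbol Arntl), the partner of CLOCK in the circadian clock, in adipocytes only, so the hepatocytes of both genotypes carried an intact gene; the driver of the deletion is not given in the sources used here. Livers were taken every 4 h from ZT0 until ZT20. Both genotypes had been kept on a light and dark cycle with free food, then spent 1 day in darkness and went without food for 24 h. Each group held 4 mice, except at ZT16, with 3 KO and 5 WT mice. Mice were 28.75 to 105 weeks old in both genotypes, and they weighed 24.2 ± 3.57 g in KO and 21.8 ± 1.997 g in WT (mean ± SD). Weight and age also varied with collection time. KO mice weighed 25.5 to 34.5 g at ZT8 and 19.1 to 21.9 g at ZT20. WT mice weighed 21.6 to 23.1 g at ZT8 and 18.7 to 22 g at ZT20. Both genotypes were 58.5 to 73.75 weeks old at ZT4 and 28.75 to 62.5 weeks old at ZT20.

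PolyA RNA was sequenced, and the authors deposited a count for each gene and library, 12840000 to 13010000 counts per library outside albumin. Levels below are CPM (each gene's count relative to the scaled total of its library), given as mean ± SD with n = 23 KO and n = 25 WT unless stated otherwise. Libraries of the same group correlated at 0.906 to 0.986 over genes on the log2 CPM scale. The liver label was checked with 6 hepatocyte markers, whose mean log2 CPM was 10.8 to 12.2 in KO libraries and 11.1 to 12.3 in WT libraries. Among them, Apoa2 averaged 12490 ± 3125 CPM in KO and 11230 ± 2706 CPM in WT. Arntl itself oscillated in the livers of both genotypes. It had 32.1 ± 3.50 CPM in KO and 32.3 ± 3.66 CPM in WT at ZT20 (n = 4 each), and 3.68 ± 2.14 CPM in KO and 2.14 ± 0.712 CPM in WT at ZT8. Means lay farther apart at ZT4 (9.54 ± 2.75 CPM in KO, 21.1 ± 9.30 CPM in WT), ZT12 (6.34 ± 5.15 and 2.015 ± 1.12 CPM) and ZT16 (26.3 ± 8.74 and 16.2 ± 2.92 CPM). Averaged over the times the difference did not pass (log2 fold change 0.30, SE 0.16, adjusted p = 0.347, edgeR's quasi-likelihood test). Since the deletion lies in fat, liver Arntl is no check on how mice were labelled. In bulk tissue, fewer cells of a type and less RNA per cell cannot be told apart.

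The P450 genes spanned more than 4 orders of magnitude, with means over all libraries of 0.376 CPM for Cyp2d12 to 10510 CPM for Cyp2e1. Together they took 3.22 ± 0.392% of the counts outside albumin in KO and 2.99 ± 0.362% in WT. Cyp2e1, the pericentral enzyme that oxidises ethanol and acetone, alone made up 33.8% of the summed CPM, and with Cyp3a11 and Cyp2a5 the share came to 50.3%. Per kilobase of exon, Cyp2e1 stood at 4871 CPM per kb, followed by Cyp2c37 at 978, Cyp2a5 at 909, Cyp2d26 at 675, Cyp3a11 at 641 and Cyp3a25 at 632 CPM per kb. Cyp2d26, Cyp3a11 and Cyp3a25 differed from each other by less than the SD between mice of any of them. At the low end, 7 genes had means under 1.5 CPM: Cyp1a1, Cyp1b1, Cyp2c55, Cyp2d12, Cyp2j8, Cyp2s1 and Cyp2u1. The plot of levels per kilobase shows the whole order for the 46 genes with an exon length.

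**Figure D1:**
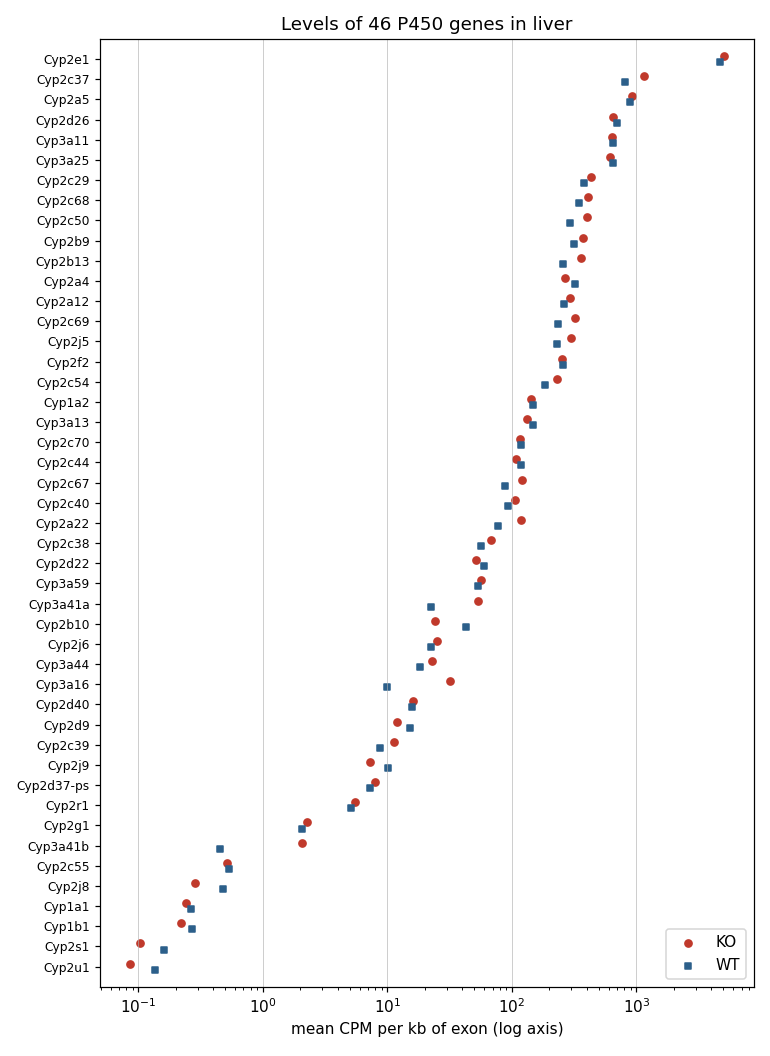
Mean level of 46 P450 genes in CPM per kb of exon (log axis) in KO (red circles, 23 mice) and WT (blue squares, 25 mice), 1 row per gene. Cyp2e1 leads at 4871 CPM per kb over all libraries, and the KO and WT symbols lie farthest apart at Cyp3a16 and Cyp3a41b.

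Averaged over the 6 times, 3 of the 48 P450 genes differed between genotypes at an adjusted p under 0.05 (edgeR's quasi-likelihood test, Benjamini-Hochberg adjustment over 13646 genes), and all 3 were higher in KO. Among all genes tested, 1.4% passed, 0.623% higher and 0.777% lower in KO. The 3 genes were Cyp3a16, Cyp3a41b and Cyp2c37. At an unadjusted p under 0.05 stood 19 P450 genes, 14 with higher and 5 with lower values in KO, where 17.1% of all genes did so. The median log2 fold change, KO minus WT, was 0.10 over the P450 genes and -0.01 over all genes. The plot of log2 fold changes shows most members within 0.5 of 0.

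**Figure D2:**
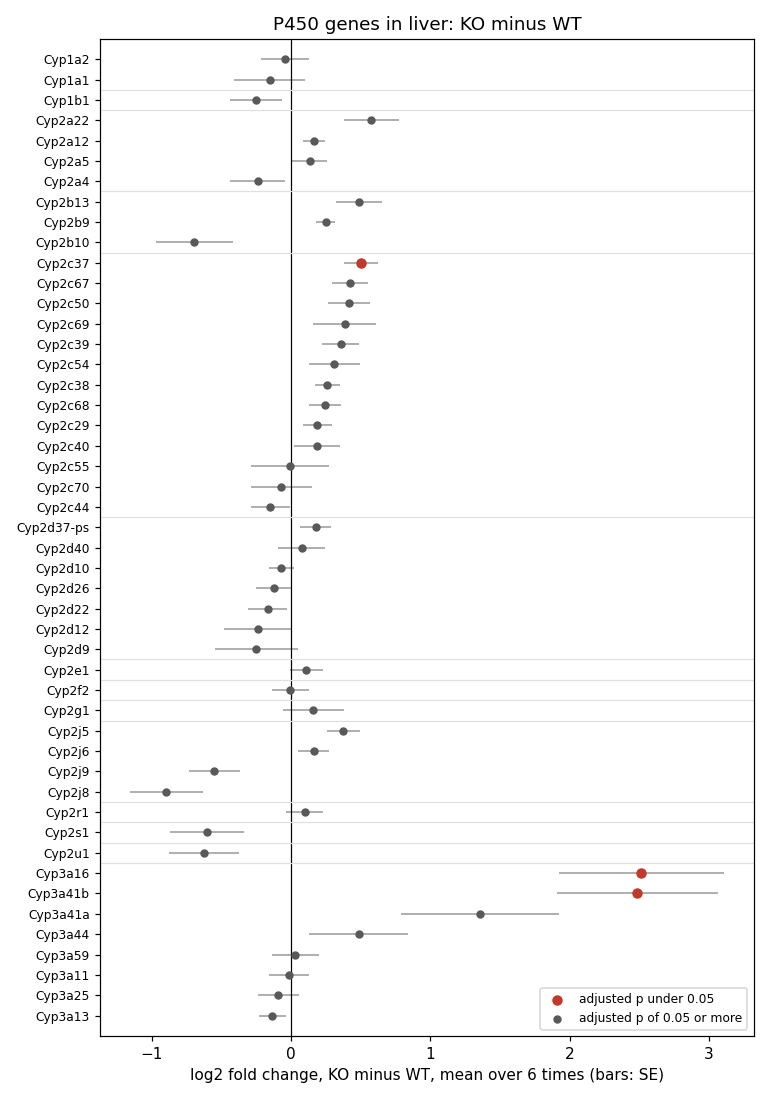
Log2 fold change, KO minus WT, averaged over 6 times, with its SE, for 48 P450 genes grouped by subfamily. The 3 genes past the threshold (red) lie to the right of 0, at 2.52 (Cyp3a16), 2.49 (Cyp3a41b) and 0.50 (Cyp2c37).

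CYP3A enzymes hydroxylate steroids and bile acids and handle many drugs. In mouse, Cyp3a16 is known from fetal and young liver, and Cyp3a41a, Cyp3a41b and Cyp3a44 as forms of female liver. Cyp3a16 lies on chromosome 5 at 146197178 to 146230592 and Cyp3a41b at 146319544 to 146345599 (mm9, per the count table), on the chromosome that holds all 8 expressed Cyp3a genes. The windows from 250 bases before to 50 bases after the annotated starts of both called genes are shown because both genes were called in the same direction; sequences are from RefSeq, build GRCm38.p6, minus strand, at chr5:145469674-145469973 for Cyp3a16 and chr5:145584681-145584980 for Cyp3a41b. Within the 296 aligned positions, of which 93.6% matched, capitals mark bases without an identical partner in the other window. Ends that reach beyond the other window are in lower case. The window of Cyp3a41a, not shown, matched that of Cyp3a41b more closely, at 98.3% of 300 aligned positions. Cyp3a41a was nevertheless not called (adjusted p = 0.213, edgeR's quasi-likelihood test). A link between the windows and the calls was not tested.
Cyp3a16: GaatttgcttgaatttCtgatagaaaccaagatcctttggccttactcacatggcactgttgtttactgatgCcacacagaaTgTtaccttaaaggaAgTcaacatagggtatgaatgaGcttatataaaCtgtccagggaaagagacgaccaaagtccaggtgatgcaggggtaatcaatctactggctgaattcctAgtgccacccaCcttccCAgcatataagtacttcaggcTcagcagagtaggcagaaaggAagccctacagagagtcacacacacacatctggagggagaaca
Cyp3a41b: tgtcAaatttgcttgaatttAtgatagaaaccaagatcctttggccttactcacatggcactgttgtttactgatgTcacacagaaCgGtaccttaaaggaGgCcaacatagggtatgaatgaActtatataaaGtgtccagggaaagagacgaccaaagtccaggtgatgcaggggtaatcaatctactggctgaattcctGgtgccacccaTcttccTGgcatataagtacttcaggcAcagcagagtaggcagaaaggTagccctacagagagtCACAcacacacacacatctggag

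Cyp3a16 ranged in KO mice from 0.154 to 546 CPM with a median of 16.5 CPM, against 0.0704 to 281 CPM with a median of 2.44 CPM in WT mice. The groups overlapped, yet 18 of 23 KO mice lay above the WT median. Means were 55.1 ± 120 CPM in KO and 17.1 ± 55.7 CPM in WT. The log2 fold change was 2.52 (SE 0.59, adjusted p = 0.0198, edgeR's quasi-likelihood test), with higher means in KO at 6 of 6 times.

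The contrast was widest at ZT4, where Cyp3a16 stood at 16.8, 6.52, 136 and 12.4 CPM in KO mice, against 2.99, 0.993, 3.51 and 0.144 CPM in WT mice. At ZT4 all 4 KO values were above all 4 WT values (log2 fold change 4.49, SE 1.58), but this did not pass over all genes (adjusted p = 0.132, edgeR). At ZT16, Cyp3a16 had 1.04, 240 and 546 CPM in KO mice, and 32.6, 2.01, 24.0, 0.170 and 281 CPM in WT mice. Both groups held mice near 1 CPM or below and mice above 100 CPM.

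Cyp3a41b was low throughout, with 0 to 35.3 CPM and a median of 1.53 CPM in KO mice, and 0 to 14.96 CPM with a median of 0.315 CPM in WT mice. Its log2 fold change was 2.49 (SE 0.58, adjusted p = 0.0174, edgeR). Of its 50-base stretches, 93.5% also occur in Cyp3a41a, so that reads of the 2 genes can be split between them by the counting. Cyp3a41a, the more abundant of the pair, ranged from 0.0750 to 489 CPM with a median of 76.0 CPM in KO mice, against 0.0849 to 221 CPM with a median of 22.7 CPM in WT mice. It did not pass (log2 fold change 1.36, SE 0.56; adjusted p = 0.213, edgeR).

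Cyp3a44, the remaining gene of this group, had a median of 29.4 CPM in KO mice and 25.0 CPM in WT mice (log2 fold change 0.49, SE 0.36, adjusted p = 0.475, edgeR). The 4 genes varied between mice of one group more than nearly all other genes, at the 99.7th percentile or higher: the SD on the log2 CPM scale around the group means was 2.92 for Cyp3a41a, 2.50 for Cyp3a16, 1.76 for Cyp3a41b and 1.54 for Cyp3a44, where the median gene had 0.414. Their deviations went in the same direction. Across the 48 libraries, deviations from the group means of Cyp3a16 correlated with those of Cyp3a41b at 0.92, of Cyp3a44 at 0.88 and of Cyp3a41a at 0.84, given as a description since the libraries and, for the Cyp3a41 pair, the sequences are shared.

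Summed over the 4 genes, the highest mice had 1262 CPM in KO ZT16 replicate 3, 757 CPM in KO ZT4 replicate 3, 666 CPM in WT ZT16 replicate 5 and 631 CPM in KO ZT16 replicate 2, where the median was 121 CPM in KO and 52.5 CPM in WT. Of the other CYP3A genes, Cyp3a11, the main PXR-inducible form of mouse liver, averaged 3216 ± 1024 CPM in KO and 3307 ± 1602 CPM in WT. Its log2 fold change of -0.01 (SE 0.14), and those of Cyp3a25 (-0.09), Cyp3a59 (0.03) and Cyp3a13 (-0.13), did not pass the threshold. Cyp3a25 and Cyp3a59, which share 25.2% and 26.8% of their 50-base stretches with each other, correlated at 0.84 across libraries.

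**Figure D3:**
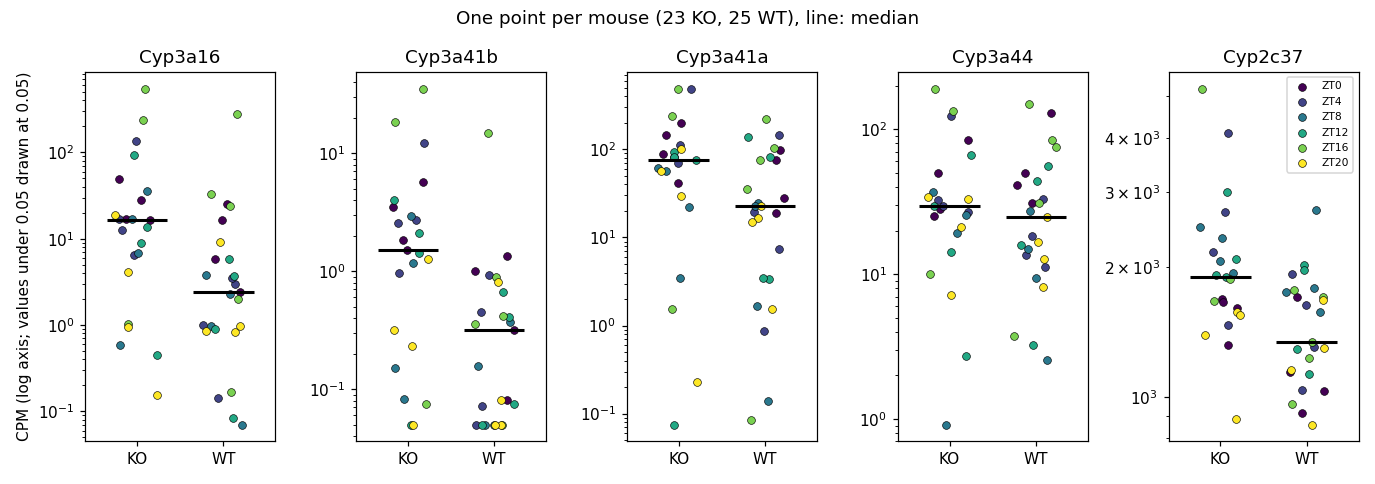
CPM (log axis) of 5 P450 genes in each of 23 KO mice (left) and 25 WT mice (right), coloured by collection time, with the median as a line. For Cyp3a16 the median is 16.5 CPM in KO and 2.44 CPM in WT, with both groups spread over several orders of magnitude, while Cyp2c37 stays between 862 and 5210 CPM.

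The calls of Cyp3a16 and Cyp3a41b were lost without 1 mouse. Without KO ZT20 replicate 2, Cyp3a16 had a log2 fold change of 2.22 (adjusted p = 0.0568) and Cyp3a41b of 2.27 (adjusted p = 0.0966, edgeR). With body weight as a covariate, Cyp3a16 had a log2 fold change of 2.43 (adjusted p = 0.107) and Cyp3a41b of 2.25 (adjusted p = 0.117, edgeR), and no P450 gene was called.

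CYP2C enzymes epoxidise and hydroxylate arachidonic acid and take part in drug and bile acid metabolism, and 13 of their genes were measured, all on chromosome 19. Only Cyp2c37, a CAR-inducible form that oxidises arachidonic acid, passed the test in this subfamily. Of the 13 genes, 10 had a value above 0, with a median log2 fold change of 0.26, where 6678 of all 13646 genes had a value above 0. Cyp2c37 (chromosome 19, 40066909 to 40086738, mm9) stood at 889 to 5210 CPM with a median of 1904 CPM in KO mice, against 862 to 2724 CPM with a median of 1340 CPM in WT mice. Means were 2113 ± 941 CPM in KO and 1479 ± 439 CPM in WT. The log2 fold change was 0.50 (SE 0.12, adjusted p = 0.0228, edgeR), higher in KO at 6 of 6 times, and 21 of 23 KO mice lay above the WT median. Of the 50-base stretches of Cyp2c37, 30.1% also occur in other genes and 21.1% in Cyp2c50, so that its separate count is uncertain.

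The largest log2 fold changes of Cyp2c37 were at ZT4 (0.82) and ZT16 (1.06). At ZT4 it had 1466, 2171, 4098 and 2691 CPM in KO mice, and 1037, 1307, 1933 and 1639 CPM in WT mice. At ZT16 it had 1675, 1884 and 5210 CPM in KO mice, and 1705, 1770, 1231, 959.7 and 1340 CPM in WT mice. The high values belonged to KO ZT4 replicate 3 and KO ZT16 replicate 3, the mice with the highest Cyp3a values too. Without KO ZT16 replicate 3 the log2 fold change was 0.38 and no longer passed (adjusted p = 0.109, edgeR). With body weight as a covariate Cyp2c37 had 0.48 (adjusted p = 0.181), and without all ZT16 libraries 0.39 (adjusted p = 0.0894).

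Below the threshold, 5 other CYP2C genes had an unadjusted p under 0.05, each with a higher mean in KO. Of all 13646 genes, 1127 were higher in KO at that level. Cyp2c67 averaged 208 ± 86.4 CPM in KO and 153 ± 50.9 CPM in WT (log2 fold change 0.42, SE 0.13, adjusted p = 0.0898, edgeR). Cyp2c50, whose transcript shares 12.6% of its 50-base stretches with Cyp2c37, averaged 1162 ± 426 CPM in KO and 860.4 ± 315 CPM in WT (0.42, SE 0.15, adjusted p = 0.156, edgeR). Cyp2c38 (0.26), Cyp2c39 (0.36) and Cyp2c68 (0.25) were the others. Cyp2c29, another CAR-inducible epoxygenase, had 1333 ± 278 CPM in KO and 1168 ± 291 CPM in WT (0.19, adjusted p = 0.344). Cyp2c70, which forms muricholic acids, the bile acids typical of mice, had 230.7 ± 139 CPM in KO and 235.7 ± 129 CPM in WT (-0.07, SE 0.22, adjusted p = 0.888, edgeR).

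Some P450 genes moved with a measure of the libraries, 12 at correlations below -0.5 and 6 above 0.5. Besides Cyp2r1, Cyp2e1 and Cyp2f2 these were CYP2C, CYP3A, CYP2J and CYP2D genes. The share of all genes beyond these limits was not determined. For each library a GC slope was computed, the log2 difference from the average library per 10 points of GC content. It was fitted over genes with a mean log2 CPM above 2. The slope averaged -0.10 in KO and 0.09 in WT, with a range of -0.80 to 0.61. Across 48 libraries, deviations of Cyp2c68 correlated with this slope at -0.88, of Cyp3a25 at -0.87 and of Cyp2c37 at -0.78, while those of Cyp2d26 did so at 0.90, of Cyp2d22 at 0.89 and of Cyp2e1 at 0.73. Exons of CYP2C genes held a median of 42.1% GC and those of 5 CYP2D genes 53.5%. Across the 46 genes with a sequence the correlation of GC content with the coefficient was 0.77. This value is a description, as the genes share their libraries. It is also partly built in, since the slope was itself fitted to GC content over genes that include P450 genes. KO ZT4 replicate 3 and KO ZT16 replicate 3 had the lowest slopes, -0.80 and -0.74. The part of base composition in the genotype values was not tested. With the slope as a covariate, Cyp2c37 kept its call at a log2 fold change of 0.33 (adjusted p = 0.0287), Cyp3a41b kept it (2.36, adjusted p = 0.0392), and Cyp3a16 did not pass (2.19, adjusted p = 0.0671, edgeR). The same fit called Cyp2j9, lower in KO (-0.70, adjusted p = 0.028, edgeR). Without the 13 libraries whose slope lay beyond 0.5 in either direction, Cyp3a16 had 1.75 (adjusted p = 0.159), Cyp3a41b 1.99 (adjusted p = 0.144) and Cyp2c37 0.35 (adjusted p = 0.0498, edgeR), and Cyp2c67 was called, higher in KO.

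**Figure D4:**
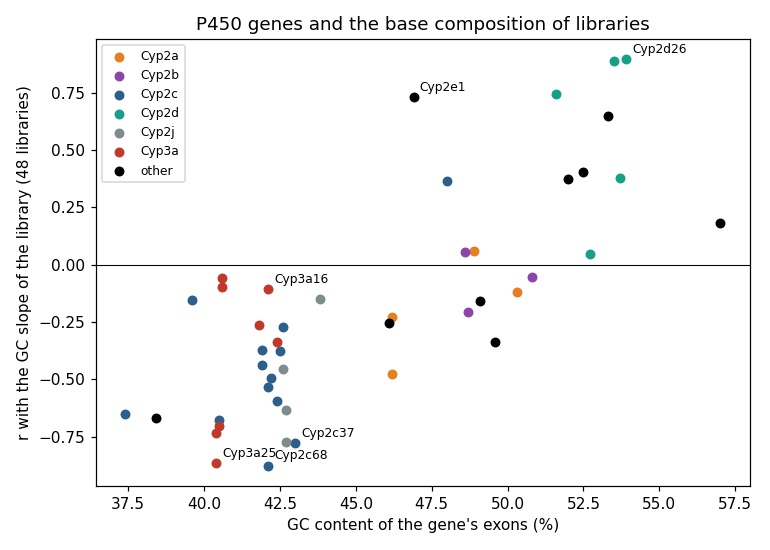
GC content of each gene's exons (%) against the correlation, over 48 libraries, of the gene's deviation from its group mean with the GC slope of the library, for 46 P450 genes coloured by subfamily. Most CYP2C and CYP3A genes lie at the lower left and most CYP2D genes at the upper right, while Cyp3a16 lies near 0 at -0.11. The slope was itself fitted to GC content, so the relation is partly built in.

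CYP2B enzymes metabolise barbiturates and steroids; Cyp2b10 is the classical CAR target, and Cyp2b9 and Cyp2b13 are predominant in female mice. None of the 3 passed. Cyp2b10 had 4.68 to 343 CPM with a median of 20.8 CPM in KO mice, against 5.16 to 397 CPM with a median of 47.7 CPM in WT mice. Its mean was lower in KO at 6 of 6 times (log2 fold change -0.70, SE 0.28), without passing the test (edgeR, adjusted p = 0.194). In CPM the gap was widest at ZT0, with 11.02, 129, 20.8 and 30.8 CPM in KO mice and 68.3, 397, 55.0 and 89.0 CPM in WT mice, where 1 high KO mouse kept the groups overlapping. Cyp2b9, the P450 gene with the smallest SD between mice (0.236 on the log2 CPM scale), averaged 704 ± 109 CPM in KO and 592 ± 98.9 CPM in WT (log2 fold change 0.25, SE 0.07, adjusted p = 0.0643, edgeR). Cyp2b13 averaged 675.9 ± 293 CPM in KO and 479 ± 225 CPM in WT (0.49, SE 0.16, adjusted p = 0.118, edgeR).

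In the CYP2A subfamily, Cyp2a5 is the coumarin 7-hydroxylase and Cyp2a4 the steroid 15-alpha-hydroxylase of female liver. None of the 4 genes passed between genotypes. Cyp2a5 averaged 1930 ± 1081 CPM in KO and 1843 ± 1080 CPM in WT (log2 fold change 0.14, SE 0.13), and Cyp2a4 averaged 460.5 ± 374 CPM in KO and 562.7 ± 299 CPM in WT (-0.24, SE 0.20). Cyp2a22 had 409 ± 219 CPM in KO and 269 ± 131 CPM in WT (0.58, SE 0.20, adjusted p = 0.125, edgeR), and Cyp2a12 had 1015 ± 196 CPM in KO and 909 ± 174 CPM in WT (0.17, SE 0.08, adjusted p = 0.28, edgeR).

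The CYP2J genes, epoxygenases of arachidonic acid, were split. Cyp2j5 averaged 697 ± 179 CPM in KO and 544 ± 176 CPM in WT (log2 fold change 0.37, SE 0.12, adjusted p = 0.1, edgeR). Cyp2j9 averaged 24.2 ± 14.7 CPM in KO and 33.9 ± 17.7 CPM in WT (-0.55, SE 0.19, adjusted p = 0.121), and the barely detected Cyp2j8 0.430 ± 0.344 CPM in KO and 0.728 ± 0.411 CPM in WT (-0.89, SE 0.26, adjusted p = 0.0712, edgeR). Cyp2j5 was among the genes tied to the GC slope (-0.77).

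Of the Ah receptor targets, Cyp1a2, which oxidises caffeine and aromatic amines, averaged 286 ± 90.1 CPM in KO and 299 ± 162 CPM in WT, and none of the 3 family 1 genes passed (log2 fold changes of -0.04 for Cyp1a2, -0.15 for Cyp1a1 and -0.25 for Cyp1b1). Cyp2e1 averaged 10870 ± 2989 CPM in KO and 10180 ± 2820 CPM in WT (0.11, SE 0.12, adjusted p = 0.615, edgeR). Cyp2f2, a periportal form, averaged 515 ± 160.2 CPM in KO and 525 ± 186 CPM in WT (-0.01, SE 0.13). The 7 CYP2D genes lay between -0.25 (Cyp2d9, a male-predominant steroid hydroxylase) and 0.18 (Cyp2d37-ps), and none passed. Cyp2r1, a vitamin D 25-hydroxylase, had 11.6 ± 3.54 CPM in KO and 10.9 ± 3.70 CPM in WT (0.10, SE 0.13). Cyp2u1 (-0.63) and Cyp2s1 (-0.60), both under 1 CPM in their group means, had adjusted p of 0.201 and 0.244.

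Sorted by how they are regulated, 10 of the P450 genes were listed as female-biased in mouse liver. Of these 8 had values above 0 and 2 passed, Cyp3a16 and Cyp3a41b, with a list median of 0.44 on the log2 scale; over all genes 0.623% were called higher and 0.777% lower in KO. Of 12 genes listed as induced through CAR or PXR, 7 had values above 0 and 1 passed (Cyp2c37), with a median of 0.16. These lists were drawn up with earlier results known. The 3 AhR-induced genes all had values below 0 (median -0.15) and the 3 zone-restricted genes had a median of -0.01. Of all 13646 genes, 6678 had values above 0 and 6968 below 0, and their median was -0.01.

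Among the partners of these enzymes, 18 genes for electron transfer and haem were tested. None passed by edgeR's quasi-likelihood test or by DESeq2, and 2 had an unadjusted p under 0.05, with a median log2 fold change of -0.04. Of all genes, 17.1% had an unadjusted p under 0.05 and 1.4% passed by edgeR. Por, the P450 reductase, averaged 403 ± 389 CPM in KO and 544 ± 362 CPM in WT (-0.33, SE 0.20, adjusted p = 0.399, edgeR). Alas1, the first enzyme of haem synthesis, averaged 442 ± 196 CPM in KO and 624 ± 480 CPM in WT (-0.37, SE 0.18, adjusted p = 0.281, edgeR). None of 22 tested receptors and transcription factors passed by either tool (2 at an unadjusted p under 0.05), the CAR gene Nr1i3 (-0.04, SE 0.09), the PXR gene Nr1i2 (-0.11, SE 0.07) and Ahr (0.23, SE 0.12) included. Of 11 genes of growth hormone signalling and sex bias none passed by either tool (3 at an unadjusted p under 0.05); Socs2, a feedback inhibitor of that pathway, had the largest value (0.43, SE 0.19, adjusted p = 0.238, edgeR).

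Many P450 genes are zoned along the lobule, so zonal markers were read beside them. All 9 periportal markers had values below 0, with a median log2 fold change of -0.43, and 1 passed: Sds, serine dehydratase, at 154 ± 99.2 CPM in KO and 265 ± 115 CPM in WT (-0.80, SE 0.20, adjusted p = 0.0238, edgeR). At an unadjusted p under 0.05 were 6 of the 9, all lower in KO. Of all 13646 genes, 6968 had values below 0, 1209 were lower in KO at that level and 0.777% were called lower by edgeR. In either direction 17.1% of all genes were at that level and 1.4% were called. DESeq2 called Sds and Hal. Of 8 pericentral markers 5 had values above 0 with a median of 0.13; none passed by edgeR (1 at an unadjusted p under 0.05), and DESeq2 called Lect2, higher in KO. The mean log2 CPM of the periportal list was 7.96 to 10.1 in KO and 8.71 to 10.02 in WT, and that of the pericentral list 5.87 to 7.22 in KO and 6.04 to 6.99 in WT. The part of zonation in the P450 values was not tested. Markers of Kupffer cells (5 genes), sinusoidal endothelium (4), cholangiocytes (4), stellate cells (4) and lymphocytes and neutrophils (5) had 0 calls by edgeR (4 genes at an unadjusted p under 0.05), with list medians of 0.03, -0.01, -0.26, -0.14 and -0.68; DESeq2 called Krt7, lower in KO.

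No P450 gene passed between genotypes at a single time. By edgeR's quasi-likelihood test the share of all genes that passed was 0.0147% at ZT0, 0.0366% at ZT4, 0.022% at ZT16 and 0% otherwise. At an unadjusted p under 0.05, ZT4 had 12 P450 genes, ZT0 had 10, ZT16 had 5, ZT12 had 2, ZT20 had 1 and ZT8 had 0. Of all genes, 23.3% were under that level at ZT4, 5.53% at ZT0, 6.65% at ZT16, 4.4% at ZT12, 1.84% at ZT20 and 1.82% at ZT8. The 10 genes at ZT0 went both ways, 5 with higher and 5 with lower values in KO. DESeq2 called no P450 gene at any of them. Of the 12 at ZT4, 11 had higher values in KO, among them Cyp2c67 (1.06), Cyp2j5 (0.91), Cyp2c68 (0.87), Cyp3a16 (4.49) and Cyp2c37 (0.82). The GC slopes at ZT4 were 0.50, -0.33, -0.80 and -0.68 in KO libraries and 0.53, 0.33, 0.02 and -0.03 in WT libraries. Without KO ZT4 replicate 1, the only KO library at that time with a positive slope, calls were summed over the 6 times. This gave 8 among the 48 P450 genes and 3360 among all genes, 13646 in the main fit. A gene can count at more than 1 time. The interaction of genotype and time called 0 P450 genes (2 at an unadjusted p under 0.05, 0 by DESeq2) and 0.00733% of all genes.

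Summed over the 48 genes, mean P450 CPM had a higher value in KO at 6 of 6 times and was highest at ZT12 in both genotypes; neither was tested. The sum was 27730 ± 3060 CPM in KO and 24780 ± 2920 CPM in WT at ZT0 (n = 4 each). It was 32030 ± 3730 CPM in KO and 28130 ± 4100 CPM in WT at ZT4, and 34810 ± 3750 CPM in KO and 29560 ± 2610 CPM in WT at ZT8. The ZT8 difference was larger than the SD of either genotype. The ZT4 difference was larger than the SD of the KO mice but smaller than that of the WT mice. The sum stood at 36460 ± 3120 CPM in KO and 34040 ± 4220 CPM in WT at ZT12, and at 29440 ± 3930 CPM in KO and 27920 ± 3300 CPM in WT at ZT20. At ZT16 it was 35080 ± 2630 CPM in KO (n = 3) and 33830 ± 2730 CPM in WT (n = 5). At ZT0 the difference was below the SD of the KO mice and just above that of the WT mice. At ZT12, ZT16 and ZT20 it was below the SD of either genotype.

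A 24 h rhythm was called for 10 of 48 P450 genes in KO, 20.8% where 17% of all genes were called, and for 9 in WT, 18.8% where 16.3% of all genes were called (edgeR's quasi-likelihood test on cosine and sine terms, adjusted p under 0.05). In both genotypes 6 were called, where 9.59% of all genes were. These shares lie near the background. Mice of different collection times also differed in weight and age, so time of day cannot be fully told apart from these. The 6 genes were Cyp2b10, Cyp2g1, Cyp2a5, Cyp2a4, Cyp2b13 and Cyp2d37-ps, which all lie in subfamilies 2A, 2B, 2D and 2G. The KO calls of 2 of them rested on single mice: leaving out 1 library at a time, that of Cyp2d37-ps was lost in 6 of 48 cases (adjusted p up to 0.0641, edgeR), each without 1 KO mouse of ZT8, ZT16 or ZT20. That of Cyp2b13 was lost in 2, without KO ZT8 replicate 2 and without KO ZT20 replicate 1 (adjusted p up to 0.0603, edgeR). A test of any difference among the 6 times kept 10 and lost 7 of the rhythm calls of named P450 genes in either genotype. Each of the 6 genes is described with its amplitude, the distance from mean to peak on the log2 CPM scale, and the time of its fitted peak.

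Cyp2b10 had the largest rhythm. It averaged 47.9, 10.7, 8.25, 19.1, 146 and 96.9 CPM in KO from ZT0 to ZT20, against 152, 30.96, 9.11, 19.9, 172 and 141 CPM in WT. It was highest at ZT16 and lowest at ZT8 on average in both genotypes. The fitted amplitude was 1.93 (SE 0.28) in KO and 2.15 (SE 0.29) in WT, a 14.4-fold and a 19.7-fold range from trough to peak, with peaks at 18.6 h (SE 0.54) in KO and 20.2 h (SE 0.49) in WT.

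Cyp2a5 had an earlier fitted peak than Cyp2b10, with high values from ZT8 to ZT16. The difference between these genes was not tested. It averaged 477, 1423, 2717, 3208, 2769 and 1194 CPM in KO from ZT0 to ZT20, against 503, 995, 2181, 3024, 2937 and 1144 CPM in WT. At ZT0 the mice stood at 526, 310.2, 805 and 267 CPM in KO and at 846, 445, 372 and 348 CPM in WT, and at ZT12 at 3299, 2611, 3350 and 3570 CPM in KO and at 3695, 2180, 3581 and 2638 CPM in WT. The lowest mouse at ZT12 lay above the highest at ZT0 in both genotypes. The amplitude of 1.33 (SE 0.16) in KO and 1.34 (SE 0.13) in WT gave a 6.30-fold and a 6.44-fold range, with peaks at 11.8 h in KO and 12.6 h in WT.

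Cyp2a4, whose transcript shares 36.1% of its 50-base stretches with Cyp2a5, peaked later, at 14.6 h in KO and 15.02 h in WT, with amplitudes of 0.90 (SE 0.26) and 0.85 (SE 0.16). Its levels at ZT16 were 936, 823 and 1480 CPM in KO and 852, 489, 688, 1092 and 1464 CPM in WT, against 195, 125, 562 and 204 CPM in KO and 182, 119, 181 and 340.3 CPM in WT at ZT4. The windows of both starts, from 250 bases before to 50 after, are given because they are nearly identical while the fitted peaks of the genes differ, a difference between genes that was not tested; they are from RefSeq, build GRCm38.p6, plus strand, at chr7:26835089-26835388 for Cyp2a5 and chr7:26306942-26307241 for Cyp2a4. Of 299 aligned positions 98.3% matched, and capitals mark the 5 that did not.
Cyp2a5: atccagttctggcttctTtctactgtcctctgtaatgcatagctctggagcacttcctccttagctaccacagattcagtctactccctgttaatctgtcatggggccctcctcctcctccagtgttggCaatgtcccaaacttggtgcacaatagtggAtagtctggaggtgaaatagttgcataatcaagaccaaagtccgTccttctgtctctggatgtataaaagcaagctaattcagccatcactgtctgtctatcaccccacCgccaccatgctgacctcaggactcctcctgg
Cyp2a4: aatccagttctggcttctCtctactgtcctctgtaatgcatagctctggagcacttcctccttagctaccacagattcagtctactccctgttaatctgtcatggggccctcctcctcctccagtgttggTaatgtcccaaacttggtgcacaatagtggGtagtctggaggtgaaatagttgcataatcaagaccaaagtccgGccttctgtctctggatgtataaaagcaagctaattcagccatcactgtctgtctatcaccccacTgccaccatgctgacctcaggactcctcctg

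Cyp2g1, known from olfactory tissue and low in liver, had a 9.63-fold range in KO (amplitude 1.63, SE 0.28, peak 7.80 h) and a 9.87-fold range in WT (1.65, SE 0.18, peak 9.65 h). At ZT4 it stood at 7.95, 11.4, 10.2 and 7.27 CPM in KO mice, against 5.52, 3.29, 4.94 and 3.01 CPM in WT mice, so that all KO values were above all WT values. The difference at ZT4 did not pass (log2 fold change 1.14, SE 0.51, adjusted p = 0.182, edgeR). Cyp2d37-ps peaked at 7.86 h in KO and 11.7 h in WT, with amplitudes of 0.41 (SE 0.09) and 0.62 (SE 0.13). At ZT0 it had 19.6, 9.13, 17.5 and 15.4 CPM in KO mice and 8.58, 4.401, 6.22 and 11.5 CPM in WT mice (log2 fold change 1.00, SE 0.28, adjusted p = 0.334, edgeR).

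Cyp2b13 peaked at 8.66 h in KO and 10.04 h in WT, with amplitudes of 0.62 (SE 0.17) and 0.73 (SE 0.18). Cyp2b9, on the same chromosome, was not called in either genotype (adjusted p = 0.399 in KO and 0.649 in WT, edgeR); whether the 2 genes differ in rhythm was not tested. Their windows, shown for that contrast, differ at 2 of 300 positions, marked by capitals (RefSeq, GRCm38.p6, plus strand, chr7:26061245-26061544 for Cyp2b13 and chr7:26173159-26173458 for Cyp2b9).
Cyp2b13: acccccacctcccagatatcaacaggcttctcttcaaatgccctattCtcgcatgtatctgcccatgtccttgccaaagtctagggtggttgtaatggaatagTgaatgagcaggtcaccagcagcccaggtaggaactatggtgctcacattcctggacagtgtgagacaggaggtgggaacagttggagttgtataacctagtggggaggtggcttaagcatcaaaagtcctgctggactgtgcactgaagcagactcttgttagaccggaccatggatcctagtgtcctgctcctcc
Cyp2b9: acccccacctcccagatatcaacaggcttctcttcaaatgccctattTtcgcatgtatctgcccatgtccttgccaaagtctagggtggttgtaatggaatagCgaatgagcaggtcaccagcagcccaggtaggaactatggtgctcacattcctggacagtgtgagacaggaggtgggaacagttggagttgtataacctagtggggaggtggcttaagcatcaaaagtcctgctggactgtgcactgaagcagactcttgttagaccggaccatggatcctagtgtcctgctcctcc

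**Figure D5:**
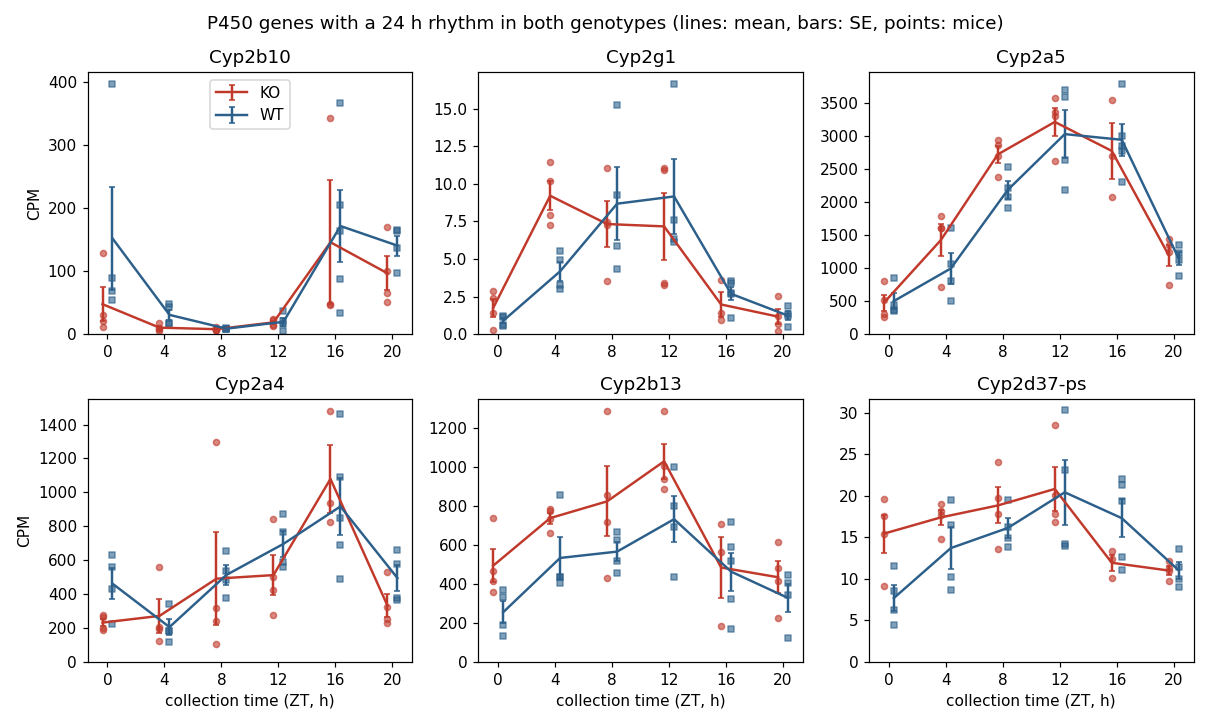
CPM against collection time (h) for the 6 P450 genes called rhythmic in both genotypes; points are mice, lines group means, bars the SE, red circles KO and blue squares WT. Cyp2b10 is lowest at ZT8 and Cyp2a5 highest at ZT12 in both genotypes, and Cyp2g1 at ZT4 averages 9.21 CPM in KO and 4.19 CPM in WT.

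The test of a difference in rhythm called 0 P450 genes and 0.00733% of all genes by edgeR's quasi-likelihood test. At an unadjusted p under 0.05 were Cyp2d37-ps and Cyp2g1, 2 P450 genes, and DESeq2 called none. The fitted peak was earlier in KO for 6 of the 6 rhythmic genes, with shifts, KO minus WT, of -0.38 h (Cyp2a4) to -3.83 h (Cyp2d37-ps) and a median of -1.49 h. Among the other 1302 genes called rhythmic in both genotypes the peak was earlier in KO for 72.8%, with a median shift of -0.72 h. The amplitude was smaller in KO for 5 of the 6, with a median ratio, KO over WT, of 0.942; it was smaller for 617 of the other 1302 genes, with a median ratio of 1.017.

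Genes called in 1 genotype only were Cyp2a22, Cyp2c67, Cyp1a1 and Cyp3a59 in KO, and Cyp3a16, Cyp2j9 and Cyp2u1 in WT; none of these differed between genotypes in the test of the difference. Cyp2a22 had an amplitude of 0.84 (SE 0.18) in KO and 0.72 (SE 0.24) in WT. The WT call of Cyp3a16 was lost with age as a covariate (adjusted p = 0.166) and without WT ZT16 replicate 5 (adjusted p = 0.302, edgeR), the mouse at 281 CPM. The abundant Cyp2e1, Cyp3a11, Cyp2c37 and Cyp2d26 were called in neither genotype.

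Regulators of P450 genes were rhythmic beside them. Nr1i3 (CAR) peaked at 9.06 h in KO and 9.53 h in WT with amplitudes of 0.41 and 0.45, and Nr1i2 (PXR) at 14.2 h in KO and 14.01 h in WT with amplitudes of 0.45 and 0.43. The PAR bZIP factors, clock-driven activators that bind D-box elements, had peaks at 8.23 h in KO and 9.63 h in WT (Dbp, amplitudes 2.38 and 2.69), 10.6 h in KO and 11.4 h in WT (Tef), and 10.7 h in KO and 12.3 h in WT (Hlf). Por peaked at 15.5 h in KO and 15.1 h in WT with amplitudes of 0.54 and 0.85, and was called in both. Alas1 was called in WT (amplitude 0.87, adjusted p = 9.17e-04) and not in KO (0.42, adjusted p = 0.285, edgeR), which does not show a difference between genotypes.

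Promoter windows of the same kind were available for 41 of the 48 genes, 43 windows in all. Both strands were searched. The D-box letters TTATGTAA were in 0 of 43 P450 windows and in 0.94% of all 32851 windows, and TTACGTAA in 0 and 0.12%. The E-box CACGTG was in 1 window (Cyp2j6), 2.33% against 7.15% of all. The STAT5 pattern TTCNNNGAA was in 0 windows, where 8.3% of all held it, and the AhR core GCGTG was in 6, 13.95% against 32.39% of all, those of Cyp1a1, Cyp1b1 and Cyp2b10 among them. The nuclear receptor half-site AGGTCA was in 15 windows, 34.88% against 16.26% of all, where Cyp3a11, Cyp2b9, Cyp2b13, Cyp2a5 and Cyp2a4 were included. Some matches lay after the annotated start, as at position 280 of the Cyp2a5 window and 281 of the Cyp2a4 window. Overlapping windows of Cyp3a25 were counted separately. Near-identical family members are counted apiece here, the windows reach only 250 bases upstream, and a missing match says nothing of the factor.

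Deviations between mice of one group were compared over the whole set. The median SD on the log2 CPM scale around the group means was 0.593, against 0.414 over all genes, and 13 of 48 lay above the 90th percentile of all genes. Pairs in the same subfamily had a median correlation of 0.36 (143 pairs), and pairs from different subfamilies 0.06 (985 pairs), over the same 48 libraries. Some pairs across subfamilies were as close, such as Cyp2j6 with Cyp2c50 at 0.87 and Cyp2j5 with Cyp2c50 at 0.86, all 3 of them tied to the GC slope. Of the 46 genes with an annotated transcript, 14 shared over 25% of their 50-base stretches with other genes, so that their separate counts are uncertain. Among them were Cyp2c40 (60.3%), Cyp2c69 (54.3%) and Cyp2c67 (52.8%), and the called genes Cyp3a41b (93.5%) and Cyp2c37 (30.1%).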

How the data were processed

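Liver polyA RNA of 48 mice was measured; libraries were made with a stranded kit with 13 PCR cycles, per the labels' protocols. Reads were handled with CASAVA and STAR 2.4.1d on build mm9, per the submitters' processing notes. The deposited values are whole-number read counts per gene, per the file headers; the counting program, the handling of reads matching several genes, and whether depth was made equal are not given in the sources used here. The albumin row, the 1 row that the table marks as a high expresser, held 5.66 to 14.6% of counts and was left out of library sizes and tests.

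The tests used edgeR 4.0.16 (R 4.3.3): filterByExpr (13646 genes), TMM scaling, 12 group means for the genotype contrasts, a cosine and sine with a 24 h period per genotype for rhythms, quasi-likelihood tests, and Benjamini-Hochberg adjustment over all genes at 0.05. CPM on the log2 scale used a prior count of 2. P-values measure the spread between these libraries. Alternatives were DESeq2 1.42.0, no filter, body weight, age, a replicate block, each library left out, and, chosen after seeing the data, the GC slope, no libraries of extreme slope, and no ZT16. Genes named in full were those called, the 5 highest and 5 lowest changes (mean log2 CPM of at least 0), the 10 most abundant, the 10 largest WT amplitudes and the smallest p of each subfamily. The members, lists and tests were chosen with earlier results of these data known. The reference annotation is of build GRCm38 and gave only lengths, GC content, shared 50-base stretches and promoter windows.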

Additional observations from a re-analysis of the deposited data

Results flagged for a closer look

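Within groups of 4 or 5 mice, single mice far from the rest of their group were looked for in the 9 members that were called between genotypes or rhythmic in both, by the gap to the nearest mouse relative to the range. Of 99 groups 12 had such a mouse; chance flags about 1 in 20 groups of normally distributed values. The rate for CPM of genes that range over orders of magnitude was not determined, and 7 of the 12 are in Cyp3a16 and Cyp3a41b, whose deviations correlate at 0.92.

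Cyp3a16 had 4 of these. It stood at 136 CPM in KO ZT4 replicate 3 (the others 6.52 to 16.8 CPM), at 92.0 CPM in KO ZT12 replicate 1 (0.450 to 13.8 CPM), at 281 CPM in WT ZT16 replicate 5 (0.170 to 32.6 CPM) and at 9.28 CPM in WT ZT20 replicate 1 (0.841 to 0.967 CPM). Cyp3a41b stood apart in 3 of the same mice, at 12.2 CPM in KO ZT4 replicate 3, 15 CPM in WT ZT16 replicate 5 and 0.803 CPM in WT ZT20 replicate 1.

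Cyp2b10 stood at 129 CPM in KO ZT0 replicate 2 (11.02 to 30.8 CPM in the others) and at 397 CPM in WT ZT0 replicate 2 (55.0 to 89.0 CPM). Cyp2a5 was low in KO ZT4 replicate 2, at 710 CPM against 1600 to 1780 CPM. Cyp2b13 was high in WT ZT4 replicate 3 at 856 CPM (407 to 436 CPM), and Cyp2g1 in WT ZT12 replicate 1 at 16.6 CPM (6.14 to 7.58 CPM).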

How the results depend on the processing

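No result changed direction among those called. For KO minus WT over all times, 3 P450 genes and 191 of all genes were called; DESeq2 called 5 (Cyp2b9 higher and Cyp2j8 lower in KO besides) and 356, body weight as a covariate left 0 and 38, and no filter left 122 of all genes. Same-numbered KO and WT mice had the same age in 22 of 23 pairs, but the labels do not say that a number marks a litter or batch, and 14 of 23 pairs correlated above 0.1 (range -0.49 to 0.60), so the block was kept as an alternative. With a replicate block, 3 P450 genes and 127 of all genes were called over all times. The 3 were Cyp3a41b, higher in KO, and Cyp2b10 and Cyp2j8, lower in KO. Cyp3a16 (adjusted p = 0.0641) and Cyp2c37 (0.0858) did not pass by edgeR. Summed over the single times there were 2 calls among all genes, and the interaction and the rhythm difference called 0.

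Calls at single times were summed over the times, so a gene can count more than once. DESeq2 gave 225 among all genes, body weight 3 and the GC slope 23. Leaving out extreme-slope libraries gave 75, 1 of them a P450 call, and leaving out ZT16 gave 545, 4 of them P450 calls. The interaction called 11 of all genes with DESeq2, 4 with the GC slope and 2 without extreme-slope libraries; the rhythm difference called 5, 3 and 2 in the same order. For WT rhythms the GC slope gave 15 P450 genes and 4053 of all genes, and leaving out extreme-slope libraries gave 25 and 4989. Testing any difference among the 6 times gave 1167 of all genes (1328 in KO). Of the rhythm calls of named P450 genes in either genotype, that test kept 10 and lost 7. The causes were not tested, except that adding a covariate or leaving out libraries also changes the degrees of freedom.

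Summed over the single times, leaving out each of 48 libraries in turn gave 0 to 8 P450 calls and 1 to 3360 calls among all genes. For P450 genes and all genes in that order, it gave 0 and 0 to 3 for the interaction, and 8 to 12 and 1876 to 2987 for WT rhythms. It gave 6 to 12 and 1628 to 3691 for KO rhythms, and 0 and 1 to 2 for the rhythm difference. Over all times it gave 1 to 8 P450 genes and 99 to 484 of all genes. The 1 came without KO ZT20 replicate 2 and the 8 without KO ZT16 replicate 2. The low and high ends over all genes came without KO ZT16 replicate 3 and without KO ZT4 replicate 1, and the lowest count of KO rhythms without KO ZT20 replicate 1. Depth limits the 7 genes under 1.5 CPM. Among 29 named genes, 9 changed sign under some setting, all uncalled and at most 0.25 from 0 on the log2 scale.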

Other observations

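Age and weight of the mice were set beside the P450 genes; same-numbered KO and WT mice had the same age in 22 of 23 pairs. Taken as deviations from the 12 group means over 48 mice, log2 CPM of Cyp3a16 correlated with age at r = 0.53 (rho 0.41), with r = 0.30 in KO and 0.76 in WT, and r = 0.49 without the 2 mice farthest from the median age. The permutation p within groups was 0.0186 for r and 0.0241 for rho (100000 draws, two-sided), and the adjusted p over the 96 relations of 48 genes with age and body weight was 0.43, so that the relation did not pass. Cyp3a41a (r = 0.46), Cyp3a41b (0.49) and Cyp3a44 (0.42) had the same sign, and the abundant Cyp3a11 the opposite one (r = -0.48, rho -0.35; -0.18 in KO and -0.67 in WT; permutation p = 0.00561, adjusted 0.43). With age as a covariate, the genotype difference of Cyp3a16 was 2.98 on the log2 scale (adjusted p = 0.00521, edgeR).

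With body weight, r was 0.01 for Cyp3a16 (-0.29 in KO and 0.50 in WT), 0.06 for Cyp2c37 (0.15 in WT) and 0.10 for Cyp3a41b (-0.19 in KO and 0.62 in WT), and none of the relations passed. The heaviest mouse, KO ZT8 replicate 2 at 34.5 g, had 0.582 CPM of Cyp3a16, where the KO median was 16.5 CPM; the next 3 in weight, all KO (28.4, 27.8 and 27.2 g), had 16.5, 28.1 and 12.4 CPM.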
